A study of Mus musculus with 19 samples.

Results

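The mammary gland of mice without the casein super-enhancer (ΔSE) was compared with WT gland at day 18 of pregnancy (p18) by total RNA-seq. The comparison holds 7 of the 19 libraries of the series, namely the 4 libraries labelled Enhancer-delS1-4 and the 3 WT libraries of that day. Both groups are whole mammary tissue of mice labelled C57BL/6 that received no agent. By the study's methods, all were young adult females, the deletion was made with CRISPR/Cas9 in zygotes of C57BL/6N mice, the same substrain served as WT, mutants were homozygous and replicates were independent. The number of founder lines is not given in the sources used here. Only the Enhancer-delS1-4 mice carry an engineered change. The deleted DNA lies between genes and has no count of its own, so the labels are checked here only through the casein genes beside it.

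In late pregnancy, prolactin acts through the kinase JAK2 and the transcription factor STAT5 to turn alveolar epithelial cells into milk-secreting cells. These cells then make caseins, whey proteins, lactose and fat, for which they enlarge the endoplasmic reticulum (ER) and its export machinery. A super-enhancer is a dense cluster of enhancers, and the one studied here lies among the casein genes on chromosome 5. κ-casein, encoded by Csn3, coats the casein micelle and keeps it in suspension. Among the luminal cells, those that carry estrogen and progesterone receptors do not secrete milk but signal to their neighbours through ligands such as RANKL and amphiregulin.

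Of the 5 casein genes 3 fell in ΔSE tissue, Csn3 the most. Levels are CPM, the reads of a gene scaled to the reads of a library in all genes but Rn45s and Lars2 and to TMM factors, and they are comparable between libraries but not between genes of different length. Csn3 (chromosome 5, 87925579 to 87932665, GRCm38) stood at 10100, 10100 and 7980 CPM in WT libraries 1 to 3 and at 231, 206, 83.7 and 79.5 CPM in ΔSE libraries 1 to 4 (log2 fold change −5.98, SE 0.36, adjusted p = 9.0e-07). Csn1s2b (chromosome 5, 87808082 to 87824426), which encodes an α-S2 casein, stood at 343, 99.1 and 65.9 CPM in WT and at 11, 24.9, 5.29 and 4.15 CPM in ΔSE tissue (log2 fold change −3.95, SE 0.55, adjusted p = 0.00167). The groups did not overlap for either gene. The fold change of Csn1s2b went from −2.91 without WT 1 to −4.67 without ΔSE 2, and its call was lost with robust dispersion and in the model of 14 libraries, where the adjusted p was 0.0968. Adjusted p-values are those of edgeR's quasi-likelihood test after Benjamini-Hochberg adjustment over all genes tested, log2 fold changes are ΔSE over WT, and a gene with an adjusted p under 0.05 is called.

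The α-S1 casein gene Csn1s1 (chromosome 5, 87666208 to 87682578) had 39700, 39100 and 31200 CPM in WT and 22500, 19100, 10700 and 14700 CPM in ΔSE tissue (log2 fold change −1.13, SE 0.23, adjusted p = 0.0113), and its adjusted p was 0.0505 without ΔSE 4. Csn1s2a (chromosome 5, 87774567 to 87788797), a second α-S2 casein gene that may share reads with Csn1s2b, had 53300, 49300 and 42300 CPM in WT and 36900, 33700, 19700 and 24000 CPM in ΔSE tissue (adjusted p = 0.0746). The β-casein gene Csn2 (chromosome 5, 87692624 to 87699630) had 38100, 38500 and 31900 CPM in WT and 34000, 29800, 18600 and 20300 CPM in ΔSE tissue (adjusted p = 0.258). The groups overlapped for Csn2 alone among the 5 casein genes, and neither Csn2 nor Csn1s2a passed the test.

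Promoters of the 3 casein genes that kept the most of their WT level are shown because STAT5 is known to act at casein promoters. Each window runs from 250 bases before to 50 bases after the annotated start (RefSeq, GRCm38.p6), is read 5′ to 3′ on the strand of the gene, and has matches to the STAT5 half-site pair TTCNNNGAA in capitals. Csn1s1 is chr5:87665958-87666257 on the plus strand, Csn2 chr5:87699376-87699675 on the minus strand and Csn1s2a chr5:87774200-87774499 on the plus strand.
Csn1s1: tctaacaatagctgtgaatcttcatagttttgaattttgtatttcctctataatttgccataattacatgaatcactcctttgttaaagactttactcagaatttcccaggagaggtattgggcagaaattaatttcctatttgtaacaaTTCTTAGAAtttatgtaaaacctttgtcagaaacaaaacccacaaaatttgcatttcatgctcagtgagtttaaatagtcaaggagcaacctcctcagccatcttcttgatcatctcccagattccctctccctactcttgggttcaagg
Csn2: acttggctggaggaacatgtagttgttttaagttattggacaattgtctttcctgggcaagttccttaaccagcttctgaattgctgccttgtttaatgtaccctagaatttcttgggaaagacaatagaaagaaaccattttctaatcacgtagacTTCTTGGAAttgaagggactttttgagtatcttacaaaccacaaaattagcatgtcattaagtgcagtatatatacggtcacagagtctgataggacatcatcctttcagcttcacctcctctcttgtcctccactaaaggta
Csn1s2a: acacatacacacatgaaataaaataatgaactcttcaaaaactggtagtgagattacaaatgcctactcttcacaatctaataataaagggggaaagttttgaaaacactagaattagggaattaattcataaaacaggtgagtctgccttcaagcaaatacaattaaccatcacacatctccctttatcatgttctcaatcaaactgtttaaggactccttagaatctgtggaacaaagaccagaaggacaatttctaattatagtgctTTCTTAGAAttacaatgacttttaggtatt
Matches began at base −100 of Csn1s1, −93 of Csn2 and 20 of Csn1s2a, counted from the RefSeq start. The gene positions given above are from GENCODE, and their starts differ from RefSeq for Csn2 and Csn1s2a. The Csn1s2a window ends at 87774499, before the GENCODE start at 87774567, so its match lies upstream of that start. The GENCODE start of Csn2, 87699630, lies within its window, and the match lies downstream of it. This palindromic pattern was present in 3 of 3 casein windows, in the windows of 9.55% of 27025 mouse genes and in 8.46% of the 12222 tested genes with a window. It was present for 13 of the 182 called higher genes that had a window (7.14%) and for 38 of the 424 called lower genes outside the casein and skeletal muscle lists that had one (8.96%). A match describes the letters and is not a site of binding. Csn3 and Csn1s2b had no window.

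Reads in genes came to 17435734 to 20525175 per WT library and 14452976 to 16515719 per ΔSE library. Of these, 29.7 to 33.4% in WT and 35.7 to 42.9% in ΔSE tissue fell on Rn45s, the precursor of ribosomal RNA, and on Lars2 9.04 to 9.47% and 11.4 to 14.1%, so fewer reads remained for other genes in the mutants. Caseins held 11.1 to 13.1% of the remaining reads in WT and 5.49 to 9.24% in ΔSE tissue. Skeletal muscle mRNA was high in WT 2 and WT 3, with 4180 and 6670 CPM over the muscle list against 127 to 207 CPM in the other 5 libraries. Unlike other levels, these muscle sums are scaled to library totals without TMM factors. With whole tissue, fewer cells of a type and less RNA per cell cannot be told apart. The p-values measure the spread between these libraries.

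Of 16545 genes tested, 848 were called (5.13%), of which 245 were higher (1.48%) and 603 lower (3.64%) in ΔSE tissue. The groups did not overlap for 2652 genes (16.0% of those tested), and among the called genes for 237 of the higher and 504 of the lower. Outside the casein and skeletal muscle lists 245 genes rose and 556 fell, and at least 2-fold changes were found for 48 and 115 of these. The balance of higher and lower calls depends on the scaling. With library totals in place of TMM factors, the median log2 fold change moved from −0.01 to 0.16, and 782 genes were higher and 308 lower, so that 71.7% of calls were higher in place of 28.9%. With the level of the muscle list as a covariate 330 of the 556 lower and 132 of the 245 higher genes were called, while 380 genes were higher in all. With library totals all 245 higher genes stayed called, and the 308 lower genes were all among the 603. Without WT 2, 98 genes were higher and 317 lower, without ΔSE 2 129 and 349, and without ΔSE 3 130 and 295.

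**Figure D1:**
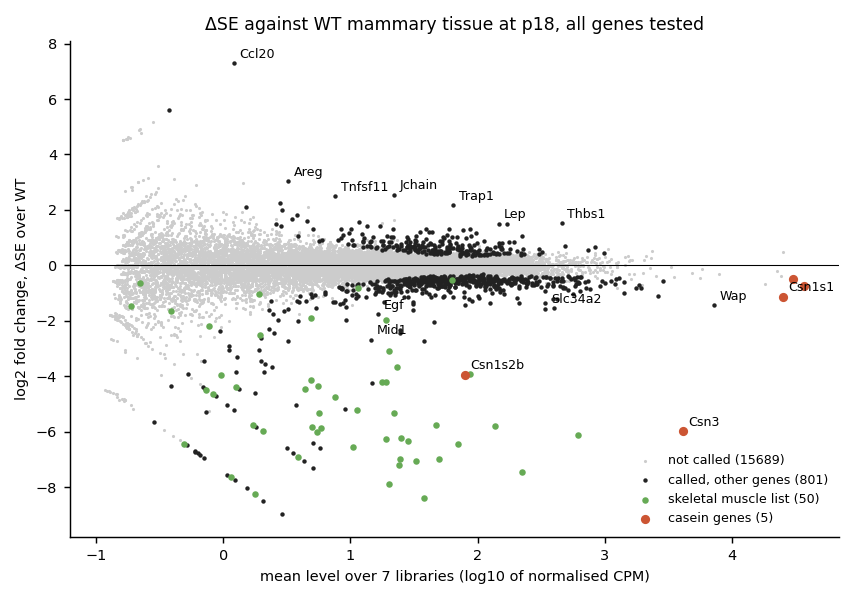
Each point is 1 of the genes tested at p18, with its mean level over the 7 libraries on the horizontal axis and its log2 fold change of ΔSE over WT on the vertical axis. Genes called are black, the skeletal muscle list green, the caseins red and genes not called grey. The 245 higher genes lie above the line at 0, and Csn3 stands at −5.98 and Areg at 3.03.

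Milk protein genes outside the casein locus were lower where they were called. In ΔSE tissue 6 of the 20 tested fell and 0 rose, with a median log2 fold change of −0.44 over the list. Wap, which encodes the whey acidic protein, stood at 17100, 10000 and 6670 CPM in WT and 6850, 5410, 2360 and 2020 CPM in ΔSE tissue (log2 fold change −1.44, SE 0.38, adjusted p = 0.0390). The groups overlapped, since WT 3 lay below ΔSE 1, and the call was lost without WT 1, WT 2, ΔSE 2, ΔSE 3 or ΔSE 4 (adjusted p 0.166, 0.0961, 0.0678, 0.134 and 0.102). Xdh, the xanthine oxidoreductase of the milk fat globule, had a log2 fold change of −0.81 (adjusted p = 0.0199), which was lost without WT 2, ΔSE 2, ΔSE 3 or ΔSE 4 (adjusted p 0.119, 0.0581, 0.0755 and 0.0709). The number of called members was 0 without WT 2, ΔSE 3 or ΔSE 4 and 1 without WT 1 or ΔSE 2, so the count depended on single libraries.

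For lactose, 2 of 15 genes of its synthesis and glucose supply fell and 0 rose, at a median of −0.31, with 1 lower without WT 2 and 4 without WT 3. The galactosyltransferase gene B4galt1, whose product joins glucose and galactose in the Golgi, had 2110, 2360 and 1410 CPM in WT and 1270, 1170, 721 and 787 CPM in ΔSE tissue (log2 fold change −0.99, SE 0.21, adjusted p = 0.0120). All ΔSE libraries lay below all WT libraries, but the adjusted p was 0.0778 without WT 2. Ugp2, which makes UDP-glucose, had 139, 131 and 135 CPM in WT and 97.4, 101, 82 and 104 CPM in ΔSE tissue (log2 fold change −0.49, SE 0.10, adjusted p = 0.0115) and stayed called whichever library was left out. Lalba, which encodes the α-lactalbumin subunit of lactose synthase and is a member of the milk protein list, varied within WT from 1260 CPM in WT 1 to 425 in WT 2 and 212 in WT 3, against 296, 253, 119 and 206 in ΔSE tissue. Its adjusted p was 0.0481 with all libraries and 0.359 without WT 1, and it stayed called only without WT 3.

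Milk lipid synthesis had 11 called members of 27, all lower, at a median of −0.49. The mitochondrial citrate carrier gene Slc25a1 stood at 157, 164 and 124 CPM in WT and 91.5, 97.8, 83.1 and 81 CPM in ΔSE tissue (log2 fold change −0.75, SE 0.11, adjusted p = 0.00253). Aldoc, a glycolytic aldolase gene, had 317, 304 and 220 CPM in WT and 159, 152, 145 and 176 CPM in ΔSE tissue (log2 fold change −0.83, SE 0.13, adjusted p = 0.00268). Both sets of libraries were apart for each gene. Acsl4, which activates long-chain fatty acids, fell by 0.63 on the log2 scale, and Me1, the malic enzyme that supplies NADPH, fell by 0.60 (adjusted p 0.00481 and 0.00562). Fasn, the fatty acid synthase, had 5490, 7910 and 6450 CPM in WT and 5590, 4970, 4820 and 3710 CPM in ΔSE tissue and did not pass (adjusted p = 0.148). Over the fits with 1 library left out the list had 4 to 12 called members, the fewest without WT 2, followed by 6 without ΔSE 3 and 6 without ΔSE 4. Cholesterol synthesis, a pathway of the same SREBP family of regulators, had 1 higher and 1 lower member of 22, Sc5d and Insig1. Without WT 1 (adjusted p 0.101 and 0.0811) or WT 2 (0.169 and 0.0600) neither was called, and Sc5d was also lost without ΔSE 1, ΔSE 2 or ΔSE 4 (0.0854, 0.112 and 0.0975).

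Abcg2, an efflux pump of the apical membrane that carries riboflavin into milk, was picked after its values were seen. It had 637, 719 and 521 CPM in WT and 359, 365, 164 and 203 CPM in ΔSE tissue (log2 fold change −1.20, SE 0.23, adjusted p = 0.00663). Every ΔSE library lay below every WT library.

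The genes that move calcium, zinc and phosphate toward milk had 5 of 14 members lower and 0 higher, at a median of −0.39. Orai1, the calcium entry channel of the plasma membrane, stood at 69.5, 77.2 and 40.3 CPM in WT and 34.9, 32.4, 22.9 and 23.1 CPM in ΔSE tissue (log2 fold change −1.14, SE 0.20, adjusted p = 0.00470). Atp2c2, a calcium pump of the secretory pathway, had 210, 150 and 91.7 CPM in WT and 91.4, 70.9, 51.6 and 52.2 CPM in ΔSE tissue (log2 fold change −1.19, SE 0.23, adjusted p = 0.00819). In Atp2c2 the closest values, WT 3 and ΔSE 1, were nearly equal. Slc34a2, a sodium-phosphate cotransporter, had 756, 608 and 278 CPM in WT and 236, 219, 143 and 140 CPM in ΔSE tissue (log2 fold change −1.57, SE 0.26, adjusted p = 0.00384). Slc30a4, the zinc transporter ZnT4 that loads zinc into milk, fell by 0.55 on the log2 scale (adjusted p = 0.00851). Atp2b2, the calcium pump of the apical membrane, had 139, 63.8 and 15.9 CPM in WT and 22.1, 12.9, 6.58 and 3.62 CPM in ΔSE tissue, so that WT 3 lay below ΔSE 1 (adjusted p = 0.0116). Of the general secretory genes near the top of the ranking, the Golgi ion transporter gene Tmem165 had 429, 352 and 193 CPM in WT and 151, 138, 112 and 109 CPM in ΔSE tissue (log2 fold change −1.35, SE 0.20, adjusted p = 0.00239). Rab18, a GTPase of lipid droplets and ER, had 650, 572 and 326 CPM in WT and 253, 228, 156 and 175 CPM in ΔSE tissue (log2 fold change −1.35, SE 0.20, adjusted p = 0.00252). WT 3 was the lowest WT library for Slc34a2, Tmem165 and Rab18, and it was still above every ΔSE library.

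Genes for entry into the ER were among those lower in ΔSE tissue. Sec61b, a subunit of the translocon through which nascent secretory proteins pass, had 112, 83.8 and 86.5 CPM in WT and 44.6, 39.1, 37.6 and 47.8 CPM in ΔSE tissue (log2 fold change −1.15, SE 0.13, adjusted p = 3.2e-04). Fkbp11, a peptidyl-prolyl isomerase of the ER, had 263, 177 and 136 CPM in WT and 89.7, 90.8, 53.7 and 64.8 CPM in ΔSE tissue (log2 fold change −1.37, SE 0.20, adjusted p = 0.00239). Both groups were separate for each gene, and each call stayed whichever library was left out. Bhlha15, the transcription factor MIST1 of professional secretory cells, had 79.5, 96.1 and 57.1 CPM in WT and 42.3, 46.9, 28.3 and 24.4 CPM in ΔSE tissue (log2 fold change −1.14, SE 0.21, adjusted p = 0.00546).

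Over the list of ER folding and the unfolded protein response, 3 of 23 members fell and 0 rose at a median of −0.26, and with 1 library left out 1 to 6 were called. Only 1 was called without WT 1, WT 2, ΔSE 2, ΔSE 3 or ΔSE 4, and 6 were called without WT 3. Further genes of the translocon and signal peptidase were picked after their values were seen. These are Sec61g (−0.96, adjusted p = 0.00561), Ssr4 of the translocon-associated complex (−0.89, 0.00268), the signal peptidase genes Spcs1 (−0.63, 0.00452) and Sec11c (−0.79, 0.00596), and Serp1, which protects membrane proteins at the translocon (−0.91, 0.00561). Their values here are log2 fold changes with adjusted p, and each stayed called in all 7 fits with 1 library left out.

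Among lower genes of signalling and barrier function, Egf (chromosome 3, 129677565 to 129755316), the epidermal growth factor that mammary epithelium secretes into milk, stood at 25.7, 32.6 and 25 CPM in WT and 6.38, 10.6, 6.69 and 9.16 CPM in ΔSE tissue (log2 fold change −1.76, SE 0.19, adjusted p = 3.2e-04). Its 3 WT values were close together and far above all ΔSE values. Ramp1, which turns the calcitonin receptor-like receptor into a receptor for CGRP, had 35.7, 28.3 and 20.1 CPM in WT and 15.4, 10.8, 9.6 and 9.05 CPM in ΔSE tissue (log2 fold change −1.33, SE 0.21, adjusted p = 0.00337). Cldn8, a claudin that seals the paracellular route, had 238, 254 and 194 CPM in WT and 98.5, 109, 101 and 135 CPM in ΔSE tissue (log2 fold change −1.04, SE 0.13, adjusted p = 9.9e-04). None of the 3 genes lost its call with any library left out. Cidea, which helps lipid droplets fuse and is found in lactating gland and brown fat, had 128, 72.7 and 37.4 CPM in WT and 27.3, 22.4, 17.7 and 10.2 CPM in ΔSE tissue (log2 fold change −2.05, SE 0.34, adjusted p = 0.00370). Tight junctions as a list had 3 higher and 1 lower member of 13, and the higher genes included Cldn1 (22.9, 27.4 and 22.8 CPM in WT, 37.5, 34.1, 39.9 and 40.6 CPM in ΔSE tissue, adjusted p = 0.00859). With WT 1, ΔSE 2, ΔSE 3 or ΔSE 4 left out, 1 junction gene was higher.

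**Figure D2:**
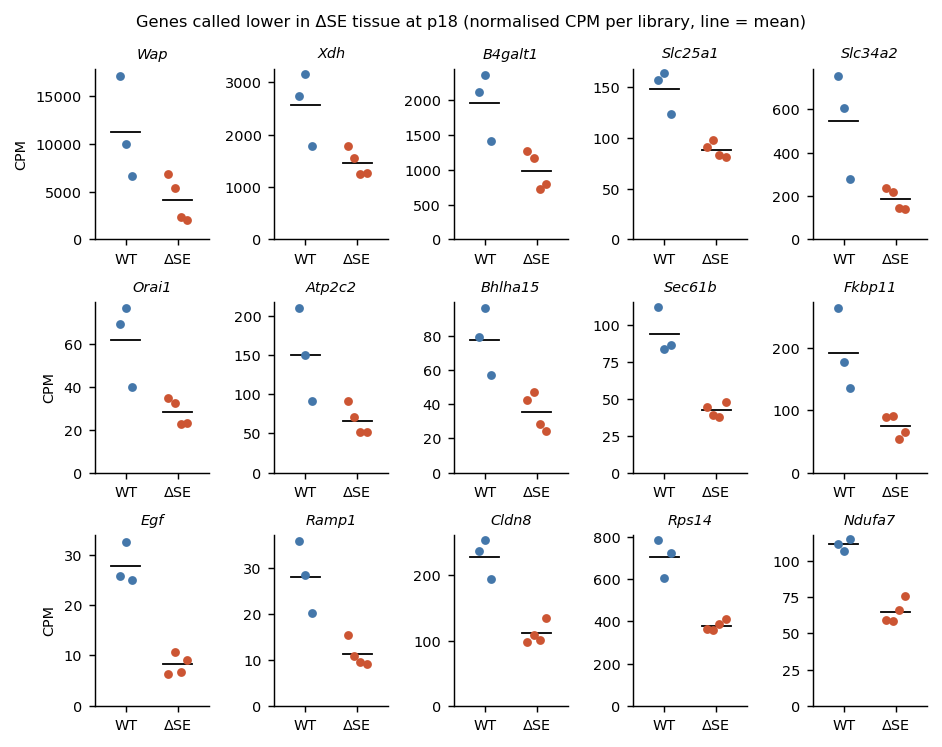
Level in CPM, on a linear axis from 0, of 15 genes called lower in ΔSE tissue, 1 panel a gene, with a point for each WT and each ΔSE library and a line at the group mean. Egf ran from 25.0 to 32.6 CPM in WT and from 6.38 to 10.6 CPM in ΔSE tissue.

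Of cytosolic ribosomal protein genes, 47 of the 76 tested were lower and 0 higher in ΔSE tissue, at a median of −0.46 and with the other 29 not called, and their summed level was 35100 to 37600 CPM in WT and 25200 to 27800 CPM in ΔSE tissue. Rps14, of the small subunit, had 787, 606 and 722 CPM in WT and 364, 357, 386 and 410 CPM in ΔSE tissue (log2 fold change −0.89, SE 0.12, adjusted p = 0.00116). Rpl27, of the large subunit, had 101, 88 and 98.1 CPM in WT and 59.5, 61, 60.7 and 57.7 CPM in ΔSE tissue (log2 fold change −0.68, SE 0.09, adjusted p = 0.00165). Neither gene overlapped between the groups. Ribosomal protein genes are prone to sharing reads with their many processed pseudogenes.

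Nuclear-encoded genes of oxidative phosphorylation were lower as well, with 32 of 55 lower and 0 higher at a median of −0.44, and summed levels of 7990 to 8510 CPM in WT and 5710 to 6620 CPM in ΔSE tissue. Ndufa7, a subunit of complex I, had 112, 107 and 115 CPM in WT and 59.2, 58.6, 66 and 75.6 CPM in ΔSE tissue (log2 fold change −0.78, SE 0.11, adjusted p = 0.00144). Ndufs4 and Ndufb9 of the same complex and Atp5o of the ATP synthase fell by 0.88, 0.74 and 0.66 on the log2 scale. With library totals as the scaling, 21 ribosomal protein genes (median −0.29) and 17 oxidative phosphorylation genes (median −0.27) were still called lower and 0 higher. Over the fits with 1 library left out, 33 to 45 and 21 to 30 were lower, the fewest without ΔSE 2 and WT 2. The model of 14 libraries called 2 and 0 of them lower at the medians of −0.47 and −0.45.

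Genes of short exonic length, taken over all annotated transcripts of a gene, were called lower more often than long ones. Of genes with at least 20 reads on average, 20.7% of the 29 below 300 exonic bases were called lower. The share was 16.4% of 61 at 300 to 600 bases and 17.2% of 180 at 600 to 1000 bases. It was 11.1% of 1247 at 1000 to 2000 bases and 1.96% of 2398 at 8000 bases or more. The median log2 fold change was −0.27, −0.23 and −0.29 in the classes below 300, at 300 to 600 and at 600 to 1000 bases. In the longest class it was 0.06. The ribosomal protein genes had a median length of 1805.5 bases, and 24 of 41 below 2000 bases and 23 of 35 above were lower, at medians of −0.43 and −0.53. For oxidative phosphorylation the median was 1829.5 bases, with 20 of 31 and 11 of 23 lower at −0.55 and −0.39. With gene length as an offset in the fit, an alternative chosen after seeing the data, 27 ribosomal protein genes (median −0.32) and 16 oxidative phosphorylation genes (median −0.30) were called lower. Short non-coding RNAs of RNA processing were picked after their values were seen. Rpph1, the RNA of ribonuclease P, had 4340, 3280 and 3800 CPM in WT and 1790, 1850, 1860 and 1480 CPM in ΔSE tissue (log2 fold change −1.12, SE 0.14, adjusted p = 0.00112), and Rmrp, the RNA of ribonuclease MRP, had a log2 fold change of −1.04 (adjusted p = 0.00344). The part of fragment length or RNA quality in these values was not tested.

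**Figure D3:**
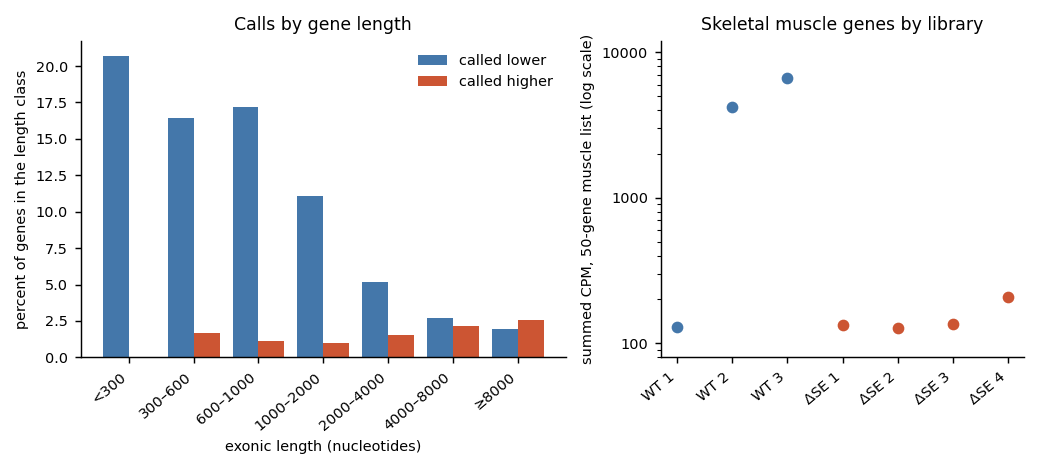
The left panel shows the percent of genes called higher and called lower in ΔSE tissue by class of exonic length, and the right panel the summed CPM of the skeletal muscle list in each of the 7 libraries on a log axis. The summed CPM is scaled to library totals without TMM factors. The lower share is 20.7% in the shortest class, 16.4% and 17.2% in the next classes and 1.96% in the longest. WT 2 and WT 3 stand at 4180 and 6670 CPM.

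Small RNAs inside longer genes were also among the lower genes ranked by effect. Mir6516 (chromosome 11, 117077348 to 117077457) had 19.3, 11.7 and 17.1 CPM in WT and 3.56, 3.47, 3.78 and 5.22 CPM in ΔSE tissue (log2 fold change −1.98, SE 0.23, adjusted p = 4.9e-04). This entry lies in the host gene Snhg20 and overlaps the small Cajal body RNA Gm26083, and libraries of long total RNA do not measure the mature miRNA. Snord17, a C/D box snoRNA inside Snx5, had 54.3, 31 and 59.2 CPM in WT and 15, 16.2, 18.2 and 23.9 CPM in ΔSE tissue (log2 fold change −1.39, SE 0.21, adjusted p = 0.00230). In neither case did the groups overlap.

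Mid1, which spans the edge of the pseudoautosomal region of the mouse X (chromosome X, 169685199 to 170005736), was low in all ΔSE libraries. MID1 is a ubiquitin ligase that binds microtubules. Its level was 35.1, 19.4 and 30.7 CPM in WT and 5.04, 2.31, 4.31 and 5.75 CPM in ΔSE tissue (log2 fold change −2.68, SE 0.25, adjusted p = 2.1e-04). G530011O06Rik (X, 169975043 to 169978917), which lies inside Mid1 on the opposite strand and was picked after its values were seen, had 11.3, 5.6 and 8.38 CPM in WT and 0, 0, 0.431 and 0.426 CPM in ΔSE tissue (log2 fold change −5.03, SE 0.53, adjusted p = 3.2e-04). At p6 Mid1 already had 154, 63.8 and 63.4 CPM in WT and 11.9, 16.3, 17.3 and 9.62 CPM in ΔSE tissue, groups that did not overlap either (adjusted p = 0.0892). Erdr1, another gene of this region, had 5.76, 3.73 and 4.6 CPM in WT and 1.93, 0.289, 1.29 and 0 CPM in ΔSE tissue (adjusted p = 0.0294), a call lost without WT 1, WT 2, WT 3, ΔSE 2 or ΔSE 3 (adjusted p 0.0743, 0.0753, 0.0553, 0.0933 and 0.0646). Reads from a gene and its antisense partner can be told apart only if the counting used strand, which is not stated. Of the genes listed for differing between the C57BL/6J and C57BL/6N substrains, 0 of 7 were higher and 2 lower, namely Mid1 and Erdr1. Nnt, the mitochondrial transhydrogenase gene that is partly deleted in C57BL/6J mice, had a log2 fold change of −0.11 (adjusted p = 0.659).

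Of the higher genes, the ligands of hormone-sensing luminal cells had some of the greatest fold changes. Tnfsf11 (chromosome 14, 78277445 to 78308043), which encodes RANKL, stood at 2.61, 0.589 and 2.96 CPM in WT and 13.5, 9.84, 12.1 and 11.5 CPM in ΔSE tissue (log2 fold change 2.5, SE 0.35, adjusted p = 0.00167). Areg (chromosome 5, 91139599 to 91148432), which encodes the EGF receptor ligand amphiregulin, had 0.869, 0.196 and 0.821 CPM in WT and 3.86, 4.34, 6.36 and 6.28 CPM in ΔSE tissue (log2 fold change 3.03, SE 0.44, adjusted p = 0.00205). Each ΔSE library exceeded each WT library for both ligands, and both were low in WT 2. Calca, which encodes calcitonin and CGRP and is a progesterone target in the gland, had 6.95, 5.01 and 14.3 CPM in WT and 20.6, 30.1, 17 and 26.4 CPM in ΔSE tissue (log2 fold change 1.41, SE 0.29, adjusted p = 0.0116), with an adjusted p of 0.0584 without WT 2.

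These were the 3 called members of the 12 tested hormone-sensing genes, and 0 were called lower. Over the list 6 members had a negative and 6 a positive fold change, at a median of −0.09. The log2 fold changes ran from −1.39 to 3.03, and in 1 member every ΔSE library lay below every WT library. The receptor genes did not pass the test. Esr1, the estrogen receptor, had 47.7, 62.6 and 43.3 CPM in WT and 34.7, 34.4, 42.6 and 50.5 CPM in ΔSE tissue (adjusted p = 0.283). Pgr, the progesterone receptor, had 14.2, 16.8 and 16.9 CPM in WT and 5.78, 11.4, 18.9 and 14.4 CPM in ΔSE tissue (adjusted p = 0.601). Wnt4, another ligand of these cells, had 7.93, 5.89 and 11.2 CPM in WT and 11.3, 12.0, 11.8 and 9.80 CPM in ΔSE tissue (adjusted p = 0.333). All 3 genes overlapped between the groups. The summed level of the list was 438 to 554 CPM in WT and 494 to 540 CPM in ΔSE tissue.

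NF-κB is held in the cytoplasm by IκB proteins until receptors such as RANK or the TNF receptor release it, and several of its targets feed back to restrain it. Of 16 genes of NF-κB and the acute phase, 4 were higher and 0 lower in ΔSE tissue, at a median of 0.57 that was 0.21 with the muscle covariate. Nfkb2 (chromosome 19, 46304320 to 46312385), the p100 subunit of the non-canonical arm, had 42.4, 41.7 and 80.6 CPM in WT and 118, 113, 120 and 109 CPM in ΔSE tissue (log2 fold change 1.06, SE 0.18, adjusted p = 0.00441). Relb, its partner subunit, had 16.6, 10.7 and 25 CPM in WT and 39.6, 37, 34.4 and 30.5 CPM in ΔSE tissue (log2 fold change 1.01, SE 0.22, adjusted p = 0.0142). In both genes WT 3 was the highest WT library and still lay below all ΔSE libraries.

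Nfkbia (chromosome 12, 55489410 to 55492647), the inhibitor IκBα, had 98.7, 91.4 and 138 CPM in WT and 183, 171, 173 and 185 CPM in ΔSE tissue (log2 fold change 0.70, SE 0.13, adjusted p = 0.00562). Tnfaip3, the deubiquitinase A20 that restrains the pathway, had 13.7, 11.7 and 16.3 CPM in WT and 23.3, 21.4, 24.6 and 29.2 CPM in ΔSE tissue (log2 fold change 0.82, SE 0.16, adjusted p = 0.00870), with an adjusted p of 0.0546 without WT 2. Both inhibitors were thus higher along with the subunits. The canonical subunit gene Nfkb1 had 97.6, 96.6 and 96.4 CPM in WT and 109, 120, 118 and 113 CPM in ΔSE tissue and did not pass (adjusted p = 0.138). The acute phase gene Saa1 had 25.5, 1.96 and 2.96 CPM in WT and 47.6, 41.8, 20.5 and 13.8 CPM in ΔSE tissue (adjusted p = 0.173), so that its groups overlapped through WT 1.

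Promoter windows of Nfkbia and Nfkb2 are shown because NF-κB is known to act at both genes. They follow the same layout, with matches to a form of the κB motif (GGGA, any 2 bases, TTCC) in capitals. Nfkbia is chr12:55492598-55492897 on the minus strand and Nfkb2 chr19:46305445-46305744 on the plus strand. Nfkbia had 1 window and Nfkb2 had 3, of which that with the most matches was chosen. This window lies inside Nfkb2 as placed above.
Nfkbia: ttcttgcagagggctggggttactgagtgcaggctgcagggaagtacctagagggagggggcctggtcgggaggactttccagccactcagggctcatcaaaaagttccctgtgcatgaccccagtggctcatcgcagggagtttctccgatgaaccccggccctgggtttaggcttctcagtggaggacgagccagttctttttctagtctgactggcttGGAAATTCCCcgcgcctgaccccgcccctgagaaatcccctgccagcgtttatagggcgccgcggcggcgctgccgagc
Nfkb2: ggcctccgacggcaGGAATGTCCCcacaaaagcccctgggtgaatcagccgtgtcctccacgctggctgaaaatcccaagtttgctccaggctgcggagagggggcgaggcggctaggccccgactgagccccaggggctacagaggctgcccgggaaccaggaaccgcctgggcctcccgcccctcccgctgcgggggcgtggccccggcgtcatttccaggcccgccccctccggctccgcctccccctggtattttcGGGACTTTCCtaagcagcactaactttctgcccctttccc
A match in Nfkbia began at base −29 from the start, and matches in Nfkb2 at −236 and 10. This motif was present for 1.63% of 27025 genes with a window and for 1.7% of the 12222 tested genes with a window. It was found for 10 of the 182 called higher genes with a window (5.49%), for 6 of 424 called lower genes outside the casein and muscle lists (1.42%) and for 5 of the 11 listed NF-κB genes with a window. The 5 are Cxcl1, Cxcl2, Il6, Nfkb2 and Nfkbia, of which only Nfkb2 and Nfkbia are among the 4 called members of the list. The list names NF-κB and acute phase genes, so its share with the motif is no measure of a change in ΔSE tissue. Genes with several annotated starts have several windows, and these counts take a gene as matched if any window holds the motif on either strand.

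Further genes known as NF-κB targets or parts of TNF signalling were picked after their values were seen and so do not extend the count above. Ccl20, a chemokine, had 0 reads in all 3 WT libraries and 1.63, 2.03, 2.27 and 2.56 CPM in ΔSE tissue, at least 22.3-fold higher than the 0.095 CPM that 3 reads over the WT group would give (adjusted p = 0.00205). Tnf had 2.17, 0.785 and 1.64 CPM in WT and 5.49, 5.21, 6.47 and 4.69 CPM in ΔSE tissue (log2 fold change 1.83, SE 0.35, adjusted p = 0.00693). Both transcripts were scarce, but the groups were separate. Icam1, an adhesion molecule and one of the 15 ranked higher genes, had 18.9, 16.3 and 25 CPM in WT and 42.9, 50, 42.1 and 51.9 CPM in ΔSE tissue (log2 fold change 1.21, SE 0.15, adjusted p = 0.00113). Birc3, an inhibitor of apoptosis, and Vcam1, an adhesion molecule, had log2 fold changes of 1.04 and 0.72 (adjusted p 0.00231 and 0.00384). Traf1, an adaptor of TNF receptors, went the other way (−1.07, adjusted p = 0.0353), and its call held only without WT 3. Its adjusted p was 0.143 without WT 1, 0.0694 without WT 2 and 0.0828, 0.0834, 0.0529 and 0.0983 without ΔSE 1 to 4.

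**Figure D4:**
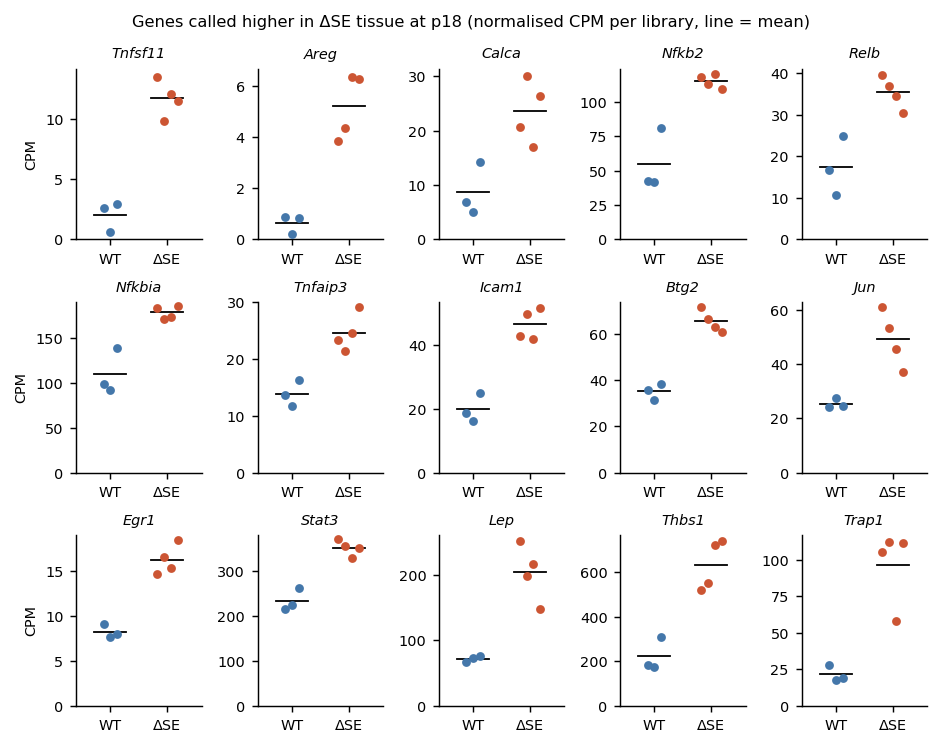
Level in CPM, on a linear axis from 0, of 15 genes called higher in ΔSE tissue, 1 panel a gene, with a point for each WT and each ΔSE library and a line at the group mean. Tnfsf11 ran from 0.589 to 2.96 CPM in WT and from 9.84 to 13.5 CPM in ΔSE tissue.

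Immediate early genes respond to stimuli within minutes and also to tissue handling. Of 18 tested, 3 were higher and 0 lower, at a median of 0.53, and their summed level was 274 to 334 CPM in WT and 371 to 485 CPM in ΔSE tissue. Btg2, an antiproliferative gene, had 35.9, 31.6 and 38.3 CPM in WT and 71.8, 66.4, 63.1 and 60.8 CPM in ΔSE tissue (log2 fold change 0.89, SE 0.11, adjusted p = 0.00112). Jun, of the AP-1 factor, had 24.1, 27.5 and 24.5 CPM in WT and 61.1, 53.4, 45.5 and 37 CPM in ΔSE tissue (log2 fold change 0.95, SE 0.16, adjusted p = 0.00371). Egr1, a zinc finger factor, had 9.12, 7.66 and 8.05 CPM in WT and 14.7, 16.6, 15.4 and 18.5 CPM in ΔSE tissue (log2 fold change 0.98, SE 0.16, adjusted p = 0.00384). No library of one group entered the range of the other for these 3 genes. With 1 library left out, 3 to 5 members were higher, 5 of them without ΔSE 4, and 8 were higher with library totals and 7 by DESeq2.

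The other strongly higher genes had varied roles. Lep (chromosome 6, 29060220 to 29073877), the adipocyte hormone leptin, stood at 66, 72.5 and 76 CPM in WT and 251, 198, 216 and 148 CPM in ΔSE tissue (log2 fold change 1.51, SE 0.15, adjusted p = 3.0e-04). The adipocyte list as a whole had 1 higher member, Lep, and 1 lower member, Retn, of 16 tested. Retn lost its call without WT 2, WT 3, ΔSE 1 or ΔSE 2 (adjusted p 0.0506, 0.0518, 0.0547 and 0.0624), and with library totals 2 members were higher and 0 lower. Thbs1 (chromosome 2, 118111876 to 118127133), the matrix protein thrombospondin 1, had 183, 176 and 309 CPM in WT and 523, 552, 724 and 740 CPM in ΔSE tissue (log2 fold change 1.51, SE 0.19, adjusted p = 0.00116). Npr3 (chromosome 15, 11839896 to 11907287), the clearance receptor of natriuretic peptides, had 64.9, 98.5 and 86.8 CPM in WT and 271, 198, 271 and 192 CPM in ΔSE tissue (log2 fold change 1.48, SE 0.16, adjusted p = 3.2e-04). The groups were separate for all 3 genes. Sox4, a transcription factor of progenitor cells, had 31.8, 39.9 and 55.4 CPM in WT and 107, 121, 93.6 and 93.4 CPM in ΔSE tissue (log2 fold change 1.29, SE 0.16, adjusted p = 0.00112). Gcnt1, an O-glycan branching enzyme, and Dusp8, a phosphatase of MAP kinases, rose by log2 fold changes of 1.31 and 1.40 (adjusted p 5.2e-04 and 0.00382). Sspo, Shisa2, Lipm and Lbh completed the ranked genes that stayed called in all 7 fits with 1 library left out, at log2 fold changes of 1.22 to 1.58. Cyp1b1, a monooxygenase, had a log2 fold change of 1.31 (adjusted p = 0.00717, and 0.0553 without WT 2).

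Trap1 (chromosome 16, 4039971 to 4077827), a mitochondrial chaperone of the HSP90 family, had 28, 17.5 and 19 CPM in WT and 105, 112, 57.7 and 111 CPM in ΔSE tissue (log2 fold change 2.17, SE 0.22, adjusted p = 3.0e-04). ΔSE 3 stood below the other ΔSE libraries but above every WT library. At p6 it had 71.2, 33.1 and 45.8 CPM in WT and 125, 123, 107 and 137 CPM in ΔSE tissue, again without overlap, although it did not pass there (log2 fold change 1.30, adjusted p = 0.228). The gene overlaps Dnase1, which lies on the other strand. The heat shock list had 0 higher and 1 lower member of 10, Hspe1, whose call was lost without WT 1, WT 3, ΔSE 1 or ΔSE 3 (adjusted p 0.0717, 0.0531, 0.0675 and 0.0742). With library totals 1 member was higher and 0 lower.

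Prolactin and STAT5 signalling genes had 2 of 12 members higher and 0 lower, at a median of −0.04, which was 0.12 with library totals. Stat3, a factor related to STAT5 and known for its part in involution, had 216, 224 and 263 CPM in WT and 373, 356, 330 and 353 CPM in ΔSE tissue (log2 fold change 0.59, SE 0.11, adjusted p = 0.00535). It overlaps its neighbour Stat5a, which had 209, 278 and 235 CPM in WT and 264, 263, 202 and 207 CPM in ΔSE tissue (adjusted p = 0.907). Jak2, the kinase bound to the prolactin receptor, had 87.7, 86.6 and 86.2 CPM in WT and 111, 125, 104 and 119 CPM in ΔSE tissue (adjusted p = 0.0264), a call lost without WT 2, WT 3, ΔSE 2 or ΔSE 4 (adjusted p 0.0858, 0.0550, 0.0817 and 0.0665). Its groups were close but separate. The receptor gene Prlr had 210, 193 and 162 CPM in WT and 185, 151, 132 and 147 CPM in ΔSE tissue (adjusted p = 0.218), and Cish, a feedback target of STAT5, had 50.4, 50.4 and 52.7 CPM in WT and 48.8, 43.0, 38.3 and 44.7 CPM in ΔSE tissue (adjusted p = 0.293). Neither passed the test.

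Transcription factors of alveolar cells had 2 higher and 2 lower members of 17, at a median of 0.11, which became 5 and 2 at 0.28 with library totals. Beside Bhlha15, Id2 was lower (141, 179 and 131 CPM in WT, 89.7, 110, 74.8 and 107 CPM in ΔSE tissue, adjusted p = 0.0129, and 0.0881 without WT 2). Ehf, an ETS factor, was higher (460, 614 and 657 CPM in WT, 821, 902, 858 and 843 CPM in ΔSE tissue, adjusted p = 0.0199), and the call was lost without ΔSE 2 or ΔSE 3 (adjusted p 0.0672 and 0.0549). Cebpb was the other higher factor (adjusted p = 0.0417), called only without WT 2 or ΔSE 4 in the fits that left out a library (adjusted p 0.116, 0.0893, 0.0747, 0.123 and 0.119 without WT 1, WT 3, ΔSE 1, ΔSE 2 and ΔSE 3). Elf5, the ETS factor that directs alveolar fate, had 962, 1210 and 903 CPM in WT and 898, 881, 568 and 638 CPM in ΔSE tissue and did not pass (adjusted p = 0.141). Its groups were next to each other without overlap.

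Markers of the cell types that whole mammary tissue can hold were counted in the same test. Luminal epithelium had 1 higher and 2 lower members of 14 (median 0.29, with 8 higher under the muscle covariate), the lower ones being Cldn8 and the retinaldehyde dehydrogenase gene Aldh1a3 (37.4, 31.7 and 34.4 CPM in WT, 13.9, 24.3, 14.7 and 18.6 CPM in ΔSE tissue). The keratin genes of luminal cells did not pass, with Krt8 at 283, 390 and 427 CPM in WT and 463, 475, 431 and 431 CPM in ΔSE tissue (adjusted p = 0.249) and Krt18 at 330, 470 and 499 CPM in WT and 447, 442, 470 and 501 CPM in ΔSE tissue (adjusted p = 0.767). Both groups overlapped for Krt18, and WT 1 was the lowest library for both keratins. Myoepithelial cells had 0 called of 12, with a summed level of 3210 to 3510 CPM in WT and 3110 to 3380 CPM in ΔSE tissue, and macrophages had 0 of 12, endothelium 0 of 10 and T and NK cells 0 of 12. Also at 0 were neutrophils of 5, nerve and Schwann cells of 8, salivary gland of 3 and erythroid cells of 1 tested.

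One gene was lower among 12 of stromal fibroblasts, 8 of mast cells, 4 of skin and hair follicle, 6 of brown adipocytes and 24 stimulated by interferon. Of these, the fibroblast gene Pi16 lost its call without WT 1, WT 2, WT 3, ΔSE 1 or ΔSE 3 (adjusted p 0.0520, 0.0527, 0.119, 0.0741 and 0.123), and the mast cell gene Cpa3 without WT 1, WT 3, ΔSE 1, ΔSE 3 or ΔSE 4 (0.0949, 0.163, 0.0883, 0.130 and 0.0967). With library totals 0 genes were called in the fibroblast, mast cell and interferon lists. The summed level of the brown adipocyte markers was 56.3 to 142 CPM in WT and 29.9 to 33.4 CPM in ΔSE tissue. Cidea, shared with milk-secreting cells, was their called member and gave 37.4 to 128 CPM of the sum in WT and 10.2 to 27.3 CPM in ΔSE tissue. Over the list 3 members had a negative and 3 a positive fold change, at a median of −0.29, so the sum mostly follows Cidea. Plasma and B cells had 1 higher of 11. That gene, Jchain, lies beside the caseins and had 9.01, 4.12 and 4.19 CPM in WT and 51.3, 67.7, 10.7 and 6.6 CPM in ΔSE tissue. ΔSE 4 lay within the WT range, and the adjusted p of 0.0320 became 0.148 without WT 2, 0.0831 without WT 3, 0.0795 without ΔSE 1 and 0.105 without ΔSE 2. Of 7 tested genes beside the caseins, Jchain was higher, Sult1d1 was lower and 5 did not pass. Sult1d1, a sulfotransferase gene, had 5.97, 3.53 and 8.62 CPM in WT and 2.67, 2.03, 1.94 and 3.09 CPM in ΔSE tissue (adjusted p = 0.0330, called only without WT 2 or ΔSE 4, and otherwise at 0.0651 to 0.182).

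The cell cycle list had 2 higher members of 27, at a median of 0.35. These were Foxm1 and Birc5, and 0 were called without WT 1, WT 2, ΔSE 2, ΔSE 3 or ΔSE 4, while 10 were called without WT 3. The proliferation marker Mki67 had 285, 238 and 327 CPM in WT and 340, 363, 406 and 410 CPM in ΔSE tissue, separate groups that did not pass (adjusted p = 0.0660). Circadian clock genes had 4 lower members of 16 at a median of −0.09, which was 0.08 with library totals. The number of the 16 that were lower, not always among those 4, was 0 without WT 1 or WT 2, 1 without ΔSE 2, ΔSE 3 or ΔSE 4, 2 without ΔSE 1 and 5 without WT 3. Glucocorticoid targets and glycolysis had 1 higher and 0 lower members each, of 12 and 19, at medians of 0.34 and −0.30. For the first it was Pdk4, a kinase that restrains pyruvate oxidation, whose call was lost without WT 1, WT 2 or ΔSE 3 (adjusted p 0.0917, 0.114 and 0.107), and the list had 0 calls by DESeq2 and 3 higher with library totals. For the second it was Pfkfb3, which makes the allosteric activator of phosphofructokinase (56.1, 55.8 and 53.7 CPM in WT, 87.6, 73.5, 109 and 93.4 CPM in ΔSE tissue, adjusted p = 0.00413). Pfkfb3 differed from most of the glycolysis list, in which 13 members had a negative and 5 a positive fold change. The summed level of that list was 2610 to 3040 CPM in WT and 2130 to 2510 CPM in ΔSE tissue. Amino acid transport had 2 lower members of 15, Slc1a4 and Slc7a4, but with library totals 2 members were higher and 0 lower, and 0 were called without WT 1, WT 2, ΔSE 2, ΔSE 3 or ΔSE 4. Without these libraries the adjusted p was 0.0885 to 0.179 for Slc1a4 and 0.0502 to 0.123 for Slc7a4. Both the amino acid stress response and the replication-dependent histones had 0 called, of 19 and 11 tested.

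**Figure D5:**
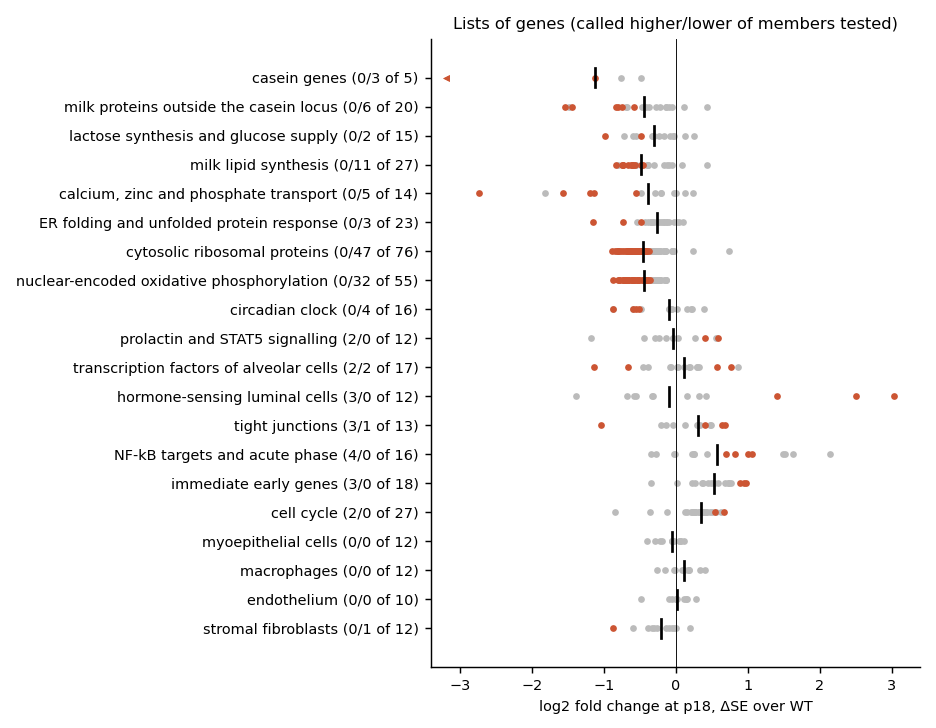
Each point is 1 tested member of a gene list, with its log2 fold change of ΔSE over WT at p18 on the horizontal axis, red where called and grey where not, and a black bar at the median of the list. Members below −3.2 are drawn at the left edge as a triangle. Red points of the ribosomal protein list (47 of 76) lie left of 0, and those of the NF-κB list (4 of 16) right of 0.

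The same 2 genotypes at p6 gave 0 called genes (0% of 17244) by edgeR, the smallest adjusted p being 0.0779 for G530011O06Rik. At an unadjusted p under 0.05 there were 2159 genes, and DESeq2 called 346. Without WT 2 of that day, edgeR called 397 higher and 292 lower. The difference between the fold changes of the 2 days, tested as an interaction over 14 libraries, was called for 32 of 17842 genes (0.179%), 23 with a higher and 9 with a lower fold change at p18. Among the genes described above these were Thbs1, Sox4, Icam1, Tmem165, Stat3, Nfkb2, Nfkbia and Cpa3. The Icam1 fold change at p18 exceeded that at p6 by 1.74 on the log2 scale (adjusted p = 0.0363), and that of Nfkb2 by 1.71 (adjusted p = 0.0406). At p6 the log2 fold changes of Icam1 and Nfkb2 were −0.53 and −0.66, opposite in sign to p18, though neither was called. With the replicate number as a block 0 interaction genes were called, and with single libraries left out 0 to 475 higher and 0 to 571 lower.

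Skeletal muscle genes are set apart here, because they were high in 2 of the 3 WT libraries and low in the other. Acta1, skeletal α-actin, had 2.61, 360 and 569 CPM in WT and 5.93, 5.79, 4.31 and 6.18 CPM in ΔSE tissue. Ckm, muscle creatine kinase, had 0.326, 102 and 164 CPM in WT and 0, 0.289, 0.216 and 0.426 CPM in ΔSE tissue. Myh4, a fast myosin heavy chain, had 0.652, 664 and 900 CPM in WT and 0.89, 2.03, 3.02 and 5.22 CPM in ΔSE tissue. In each gene WT 1 was as low as the ΔSE libraries or near them. All 3 were called lower (adjusted p 0.00357, 0.00273 and 0.00335), as were 44 of the 50 tested on the muscle list, though the groups were free of overlap in only 10 of these. With WT 2 and WT 3 left out, an alternative chosen after seeing the data, 0 of the list were called, and Acta1 and Myh4 had log2 fold changes of 1.10 and 2.13. This fit holds 1 WT library, so its spread comes from the ΔSE libraries alone and WT 1 is assumed to vary like them.

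Mylk4 and Mypn, muscle genes picked after their values were seen, had 0 reads in all 4 ΔSE libraries and 12.2 and 8.29 CPM (Mylk4) or 4.03 and 6.24 CPM (Mypn) in WT 2 and WT 3, so the list does not hold every muscle gene among the calls. Over all genes, the same fit with its single WT library gave 337 higher and 413 lower, of which 126 and 282 were among the calls with all 7 libraries.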

How the data were processed

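Whole mammary tissue at p18 was analysed in 3 WT and 4 ΔSE libraries, and the 7 libraries of the same genotypes at p6 served only for the comparison of days. Per the labels, ribosomal RNA was depleted and stranded paired-end libraries were sequenced. The deposited values are raw counts of reads per gene, which the authors made by trimming with Trimmomatic, alignment to mm10 with STAR and counting with HTSeq. The counts were not normalized, and the annotation and strand setting of the counting are not given in the sources used here. 5 libraries of other lines were not used.

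Rn45s and Lars2, which took 29.7 to 42.9% and 9.04 to 14.1% of reads, were left out of library sizes and tests. Genes with at least 10 reads over the 7 libraries were scaled with TMM factors and tested with the quasi-likelihood test of edgeR (version 4.0.16) in R (version 4.3.3), with a threshold of 0.05 for Benjamini-Hochberg adjusted p. Standard errors come from the F statistic. A gene at 0 could have had up to 3 reads in a library, 0.246 to 0.445 CPM by counting error only. An exact permutation test of 4 against 3 libraries cannot go below a two-sided p of 0.0571 and was not used. Exonic lengths and positions are from GENCODE M21 (GRCm38), in which 23334 of 24421 symbols were found directly and 667 through an older symbol. Of 154 genes named or ranked, 71 overlap another annotated gene. Stated matches of promoter motifs were searched on both strands of RefSeq windows (GRCm38.p6).

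Named genes are the caseins and their neighbours, Acta1, Ckm and Myh4, the 15 greatest changes each way (called, free of overlap, averaging 50 or more normalized counts, predicted genes aside), and up to 4 called members of each list, or 2 members where none was called. The comparison, the rule and the gene lists were chosen with earlier results of these data known, so counts over lists are descriptions. One gene that the rule names is not reported here. Any further gene was picked with its values in view. Alternatives were DESeq2 (version 1.42.0), other scalings and filters, a muscle covariate, 1 factor of unwanted variation, a model of 14 libraries, the replicate block and each library left out. A check of whether equal replicate numbers pair the libraries is given with the processing alternatives.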

Additional observations from a re-analysis of the deposited data

Results flagged for a closer look

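In 7 of the 154 genes examined, 1 ΔSE library stood apart from the other 3 by Dixon's criterion, which chance meets in about 1 of 20 groups. It was ΔSE 3 in Trap1 (57.7 CPM), Insig1 (29.6 CPM), Pdk4 (110 CPM), Slc30a4 (216 CPM), Cldn5 (47.7 CPM) and Hist1h2ab (4.96 CPM), and ΔSE 4 in Rps10 (158 CPM).

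The fold change of ΔSE over WT differed between p18 and p6 by the interaction test for 8 of these genes. On the log2 scale it was greater at p18 for Thbs1 by 1.79 (adjusted p = 0.0439), Sox4 by 1.56 (0.0498), Icam1 by 1.74 (0.0363), Stat3 by 0.96 (0.0498), Nfkb2 by 1.71 (0.0406) and Nfkbia by 1.46 (0.0404). For Tmem165 the difference was −1.60 (0.0498), and for the mast cell gene Cpa3 −2.54 (0.0404). At p6 the log2 fold changes were −0.28 for Thbs1, −0.27 for Sox4, −0.53 for Icam1 and −0.37 for Stat3. They were −0.66 for Nfkb2, −0.76 for Nfkbia, 0.25 for Tmem165 and 1.69 for Cpa3. All 8 were opposite in sign to those at p18, and none was called at p6. The calls of the interaction were lost with the replicate block.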

How the results depend on the processing

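Against 245 higher and 603 lower genes, library totals gave 782 and 308 (262 of the lower outside the casein and muscle lists), DESeq2 411 higher, the muscle covariate 380 higher, the 14-library model 18 and 31 (30 outside the lists) and a minimum log2 fold change of 1 48 and 161 (115 outside the lists). With 1 library left out, 98 to 344 were higher and 295 to 549 lower (257 to 509 outside the lists), and for the muscle list 35 to 46 were lower in place of 44. That list had 21 lower genes with filterByExpr, 2 with the covariate, 7 with robust dispersion, and 0 in the 14-library model and without WT 2 and WT 3. Among called named genes, the sign turned only in muscle genes, at log2 fold changes of 0.59 (covariate) and 1.10 (without WT 2 and WT 3) for Acta1, 1.06 and 2.13 for Myh4, and 0.25 without WT 2 and WT 3 for Ttn. At p6 DESeq2 called 196 higher and 150 lower, the block 0 and 1, and fits with 1 library left out 0 to 397 and 0 to 292. For the interaction (23 and 9) DESeq2 called 282 and 301, the block 0 and 0, and fits with 1 library left out 0 to 475 and 0 to 571. Length offsets and leaving out WT 2 and WT 3 together, which leaves WT 1 as the single WT library, were added after seeing the data. Other settings kept the p18 counts within 1.5 times. The causes were not tested. Of 128 called named genes, 80 stayed called in all 7 fits with 1 library left out, 22 under all 21 alternatives, and 103 were lost in the 14-library model.

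The replicate number as a block, on replicates 1 to 3 of each group, gave 334 higher and 716 lower genes, of which 220 and 559 were among the calls without it. Equal numbers correlated at 0.073, 0.022 and 0.151 in their deviations from the group means over 11400 genes, so not every pair was over 0.1 and the numbers are not read as pairs.

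Depth limits genes near 0.246 to 0.445 CPM, the level of 3 reads in a library.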
